A study of Arabidopsis thaliana with 48 samples.

Results

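The genes described here are the beta-tubulins of Arabidopsis thaliana, chosen as every gene with a TUB symbol followed by a number whose array probe set names that gene alone. Of the 9 such genes in the RefSeq gene table, 5 met this rule, each with 1 probe set: TUB1 (AT1G75780, 262978_at), TUB5 (AT1G20010, 261230_at), TUB6 (AT5G12250, 250317_at), TUB7 (AT2G29550, 266295_at) and TUB9 (AT4G20890, 254446_at). The other 4, TUB2, TUB3, TUB4 and TUB8, were not analysed here. Beta-tubulin genes are very similar in sequence, and a probe set that names 1 gene may also bind transcripts of its relatives. The files cannot show this, so each value below is that of the probe set. They are 5 of 13350 genes with such a probe set, on an array of 22746 tested probe sets.

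Beta-tubulin and alpha-tubulin form the dimer from which microtubules are built. In growing plant cells the cortical microtubules lie under the plasma membrane and guide the deposition of cellulose, and in dividing cells microtubules form the preprophase band, the spindle and the phragmoplast. Plants carry families of tubulin genes that encode very similar proteins and differ mainly in where and when they are transcribed. TUB1 is known in Arabidopsis mainly as a root transcript, and TUB9 is known from pollen. Auxin, of which indole-3-acetic acid (IAA) is the main natural form, slows the elongation of roots and starts the cell divisions of lateral root primordia.

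Roots of 6-day-old seedlings were sampled from medium with 1 µM IAA and from control medium without it, at 0 h, after 0.5, 1, 2 and 4 h and then after 8, 12 and 24 h. The seedlings stood on a nylon screen that was moved with them, and the 0 h roots had spent less than 5 minutes on either medium. Each of the 16 groups held 3 arrays, and the question was how auxin-responsive transcripts move over time. All groups shared the age, the growth medium with 1% sucrose and continuous light, and the labels name no genotype. They do not say whether the 3 arrays of a group came from separate cultures, so p-values measure the spread between these samples, which may be technical.

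Each probe set has 1 value an array, a log2 intensity, so that a difference of 1 is a 2-fold difference. Levels of different probe sets were not compared with each other. Array means lay between 7.70 and 7.71, and 4 arrays stood farthest from their group means over all probe sets: replicate 3 of IAA 1 h, replicate 3 of control 0 h, replicate 2 of IAA 24 h and replicate 3 of IAA 2 h. The auxin-induced genes GH3.3 and LBD29 were higher on IAA at each of the 7 times after 0 h. A gene of a list counts as measured here if a probe set names it alone, and the others may still have probe sets on the array. Of 59 root markers in the gene table, 3 were measured, and 1 passed the F test described below. The group means of PYK10, a beta-glucosidase gene of roots, lay between 14.1 and 14.4. Those of the root hair expansin genes EXPA7 and EXPA18 ranged more widely, from 8.49 to 10.16 and from 8.79 to 10.45. EXPA7 was the one that passed (limma adjusted p = 0.0225) and was higher on IAA at 4 h by 0.89 (0.0473).

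Of 46 shoot and photosynthesis markers, 8 were measured, with group means between 6.08 and 8.37, and 3 passed the F test. LHCB4.1 and LHCB4.3, which encode light-harvesting proteins of photosystem II, were lower on IAA at 4 h, with changes of -0.67 (limma adjusted p = 0.0178) and -0.52 (0.00306). PSBY, of photosystem II, was higher at 12 h by 1.01 (0.0011). Summed on the linear scale, these 8 gave log2 levels of 9.68 to 10.3 in the IAA groups and 9.86 to 10.2 in the control groups. The part of these markers in the tubulin values was not tested.

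TUB1 fell on IAA and was the member with the widest range of group means, 3.42-fold between control 8 h and IAA 4 h. TUB6 was lower on IAA over the 7 times together. TUB7 was lower at 2 h. TUB5 and TUB9 did not pass the tests of the IAA effect in the main fit, which has no replicate block. Other settings that brought them past the threshold, for TUB5 also the block, are given with each. In the moderated F test over the 7 comparisons of IAA with control from 0.5 to 24 h, 2 of 5 members passed at an adjusted p under 0.05, TUB1 (limma, Benjamini-Hochberg, adjusted p = 6.21e-07) and TUB6 (0.0181). Over all tested probe sets 28.3% passed, so that the count of members is close to the background. TUB7 gave 0.074, TUB5 gave 0.0935 and TUB9 gave 0.303.

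**Figure D1:**
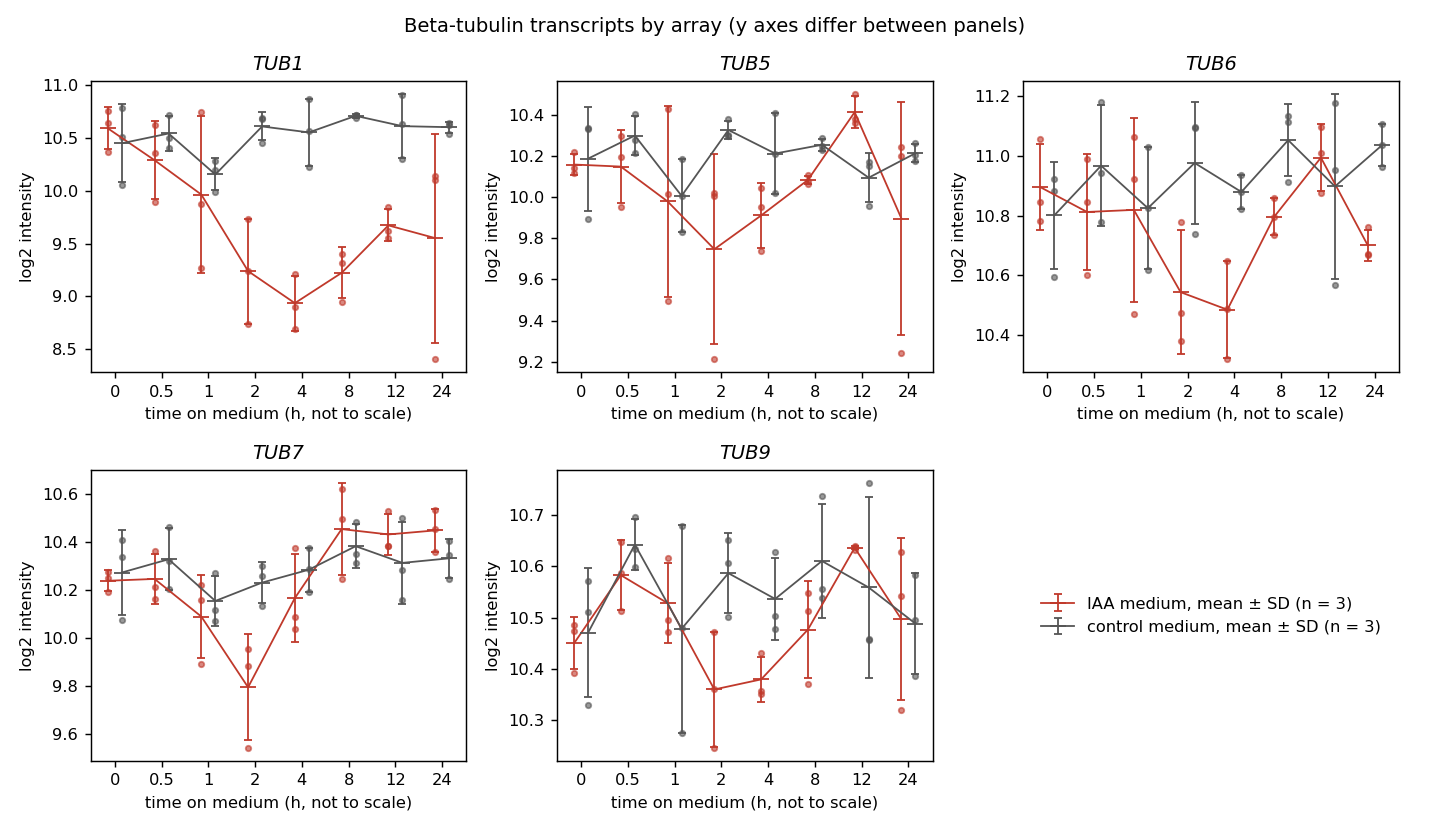
Log2 intensity of the 5 beta-tubulin probe sets (y axis, a different range in each panel) against time on the medium in hours (x axis, not to scale), with points for arrays and lines and bars for mean ± SD of 3 arrays; IAA medium is red and to the left of control medium in grey. The TUB1 arrays on IAA lay below those on control medium from 2 to 24 h, while TUB7 was lowest at 2 h on IAA and reached its highest mean at 8 h on IAA.

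TUB1 fell within 2 h of IAA and remained lower through 24 h. At 2 h its arrays read 9.24, 8.74 and 9.74 on IAA, against 10.68, 10.46 and 10.69 on control medium. At 4 h they read 9.21, 8.70 and 8.90 on IAA, against 10.57, 10.23 and 10.87 on control medium. At 8 h they read 9.40, 8.95 and 9.32 on IAA, against 10.72, 10.72 and 10.69 on control medium. All 3 IAA arrays lay below all 3 control arrays at each of these times, and the lowest TUB1 mean of the series was that of IAA 4 h, 8.94 ± 0.26 (SD, n = 3). The root marker EXPA7 was also called higher and the shoot markers LHCB4.1 and LHCB4.3 lower at 4 h, and their part in the TUB1 value was not tested.

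The change was -1.37 ± 0.31 at 2 h (log2, SE, limma adjusted p = 0.00269), -1.62 ± 0.31 at 4 h (0.000205) and -1.49 ± 0.31 at 8 h (0.000617). On the linear scale TUB1 was 2.58-fold lower on IAA at 2 h, 3.07-fold lower at 4 h and 2.80-fold lower at 8 h. With fewer cells of a type and less transcript per cell giving the same value in a whole-root sample, these 2 cannot be told apart here. The calls at 4 and 8 h held without any single array and without any replicate number. The call at 2 h was lost without replicate 1 of all groups, where the adjusted p was 0.127.

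Before 2 h the TUB1 groups overlapped. At 1 h its arrays read 9.27, 9.87 and 10.75 on IAA, against 9.99, 10.20 and 10.28 on control medium, a change of -0.19 ± 0.31 (log2, SE, limma adjusted p = 0.967). The IAA arrays of 1 h thus spanned from below all 3 controls to above them, and the highest was one of the 4 arrays that stood apart. At 0.5 h the change was -0.25, and at 0 h, before any IAA effect on transcripts, it was 0.14 with an adjusted p of 1. The 95% confidence interval at 0 h ran from -0.48 to 0.77.

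At 12 h TUB1 read 9.62, 9.55 and 9.84 on IAA, against 10.63, 10.30 and 10.91 on control medium, a change of -0.94 ± 0.31 (log2, SE, limma adjusted p = 0.0424). The groups did not overlap. This call was lost without replicate 1, 2 or 3 of all groups (adjusted p = 0.277, 0.0602 and 0.136), and without replicate 1, 2 or 3 of IAA 12 h (0.112, 0.133 and 0.0641). It was also lost without replicate 1 or 3 of control 12 h (0.0932 and 0.170), and the change ran from -1.09 to -0.79 over all fits that left out an array or a replicate number.

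At 24 h TUB1 read 10.14, 8.41 and 10.10 on IAA, against 10.62, 10.54 and 10.64 on control medium, a change of -1.05 ± 0.31 (log2, SE, limma adjusted p = 0.0292). All 3 IAA arrays lay below the controls, replicates 1 and 3 by a small margin and replicate 2 by a wide one. Without replicate 2 of IAA 24 h the change was -0.48 and the adjusted p was 0.427, so the size and the call at 24 h rested on that array. The call was also lost without any 1 of the control arrays of 24 h (adjusted p between 0.0640 and 0.0879) and without replicate 1 or 2 of all groups (0.0992 and 0.558).

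Over the 7 times from 0.5 to 24 h together, TUB1 was 1.98-fold lower on IAA (mean change -0.99 ± 0.12, SE, limma adjusted p = 1.16e-08). Of the 15 IAA arrays of 2 to 24 h, the times at which TUB1 was called, 13 lay below the lowest of all 24 control arrays, which read 9.99. Against their own lowest control arrays, the counts for TUB5, TUB6, TUB7 and TUB9 were 3, 4, 4 and 1. The share over all probe sets was not computed. In the order of the 16 group means of TUB1, the 6 lowest were the IAA groups of 1 to 24 h. Among neighbours in that order the gap was wider than the larger SD of the pair in 1 of 15 cases, between IAA 8 h (9.22) and IAA 4 h (8.94). For the other pairs of neighbours the gap was within that spread.

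TUB6 was lower on IAA by 0.21 on average over the 7 times (mean change -0.21 ± 0.06, SE, limma adjusted p = 0.00238). For this average 2 of 5 members passed, both lower, against 36.9% of all probe sets in either direction and 18% in the direction of a fall. The TUB6 arrays read 10.47, 10.38 and 10.78 on IAA at 2 h, against 10.74, 11.09 and 11.10 on control medium, a change of -0.43 (limma adjusted p = 0.0554). At 4 h they read 10.49, 10.32 and 10.65 on IAA, against 10.82, 10.93 and 10.88 on control medium, a change of -0.40 (0.0589). The groups overlapped by 1 array at 2 h and were separate at 4 h, and neither time passed alone. Both passed after quantile normalization (0.0256 at 2 h and 0.0244 at 4 h), with the filter on low values (0.0443 and 0.0471) and with the replicate number as a block (0.0282 and 0.0327).

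At 24 h the TUB6 arrays were again separate, at 10.67, 10.67 and 10.76 on IAA, against 11.11, 11.04 and 10.96 on control medium, with a change of -0.34 (limma adjusted p = 0.198). Replicate 2 of IAA 24 h, which was far below the others for TUB1, did not stand apart for TUB6. At 8 h the change was -0.26 with separate groups, and at 12 h it was 0.10 with overlapping groups. Its F test was lost without replicate 1, 2 or 3 of all groups (adjusted p = 0.112, 0.335 and 0.0772) and after median centring (0.0543), and held without any single array. Among the 16 group means of TUB6 the highest was control 8 h (11.05 ± 0.12, SD, n = 3) and the lowest IAA 4 h (10.48 ± 0.16), a range of 1.48-fold.

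TUB7 passed at 2 h, lower on IAA, and at no other of the 8 times, and its means at 8, 12 and 24 h on IAA lay above those of the controls. At 2 h its arrays read 9.96, 9.88 and 9.54 on IAA, against 10.30, 10.13 and 10.26 on control medium. The groups were separate, with replicate 3 of IAA the lowest, and the change was -0.44 ± 0.11 (log2, SE, limma adjusted p = 0.0104), or 1.35-fold lower. At 8 h the arrays read 10.62, 10.50 and 10.24 on IAA, against 10.35, 10.49 and 10.31 on control medium, a change of 0.07. The changes at 12 and 24 h were both 0.12 and did not pass (adjusted p = 0.595 and 0.671).

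The call for TUB7 at 2 h was lost without replicate 3 of IAA 2 h, where the change was -0.31 (limma adjusted p = 0.0896), and without replicate 1 of control 2 h (0.0523). It was also lost without replicate 1, 2 or 3 of all groups (0.122, 0.0517 and 0.174) and without the 4 arrays that stood apart (0.0874). With the difference at 0 h subtracted the change was -0.40 and did not pass (limma adjusted p = 0.207), nor did it with only the 6 arrays of 2 h (0.204). The F test of TUB7 passed when replicate 1 of IAA 2 h (limma adjusted p = 0.0495), replicate 1 of IAA 4 h (0.0405), replicate 3 of IAA 8 h (0.0433) or replicate 3 of control 12 h (0.0439) was left out, and after quantile normalization (0.0419). Set against the IAA arrays of 0 h in place of the controls of 2 h, TUB7 at 2 h on IAA was lower by the same amount, -0.44 (limma adjusted p = 0.00843). For TUB7 the highest of the 16 group means was IAA 8 h (10.45 ± 0.19, SD, n = 3) and the lowest IAA 2 h (9.79 ± 0.22), a range of 1.58-fold, so both ends of the order were IAA groups.

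TUB5 gave its lowest group mean at IAA 2 h and its highest at IAA 12 h, and no time passed alone. At 2 h its arrays read 10.00, 9.21 and 10.02 on IAA, against 10.30, 10.38 and 10.30 on control medium, a change of -0.58 ± 0.20 (log2, SE, limma adjusted p = 0.0558). At 12 h they read 10.38, 10.36 and 10.50 on IAA, against 10.15, 9.96 and 10.17 on control medium, a change of 0.32 ± 0.20 (0.346). The groups did not overlap at either time, with IAA below control at 2 h and above it at 12 h. At 24 h TUB5 read 10.20, 9.24 and 10.25 on IAA, against 10.20, 10.18 and 10.26 on control medium, so that the same array that was low for TUB1 was low for TUB5.

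Whether TUB5 passed depended on the setting. With all arrays kept, its change at 2 h passed after median centring (limma adjusted p = 0.0435), with the filter on low values (0.0454) and with the replicate number as a block (0.0283). The mean of the 7 times, -0.18 (0.0604), passed after quantile normalization (0.0283) and with the block (0.0372), and the F test passed with the block (0.0430). Without the 4 arrays that stood apart, a choice made after seeing the data, its adjusted p was 0.00333 with limma, against 0.0935 with all arrays. Leaving out replicate 1 or 3 of IAA 1 h (0.0418 and 0.0422) or replicate 2 or 3 of IAA 24 h (0.0459 and 0.0458) also brought it past the threshold. Without the same 4 arrays the TUB5 change at 2 h was -0.72 (limma adjusted p = 0.00155) and that at 24 h was 0.01 (0.990).

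TUB9 varied least, by 1.22-fold between its highest and lowest group means. At 2 h its arrays read 10.36, 10.25 and 10.47 on IAA, against 10.50, 10.61 and 10.65 on control medium, a change of -0.23 ± 0.09 (log2, SE, limma adjusted p = 0.147). The groups were separate at 2 h and at 4 h, where the change was -0.16, and overlapped at the other 6 times. The 95% confidence interval at 2 h ran from -0.42 to -0.03, which is narrower than those of the other members. The mean of the 7 times for TUB9 was -0.06 (limma adjusted p = 0.175), and it passed after quantile normalization (-0.10, 0.0262).

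**Figure D2:**
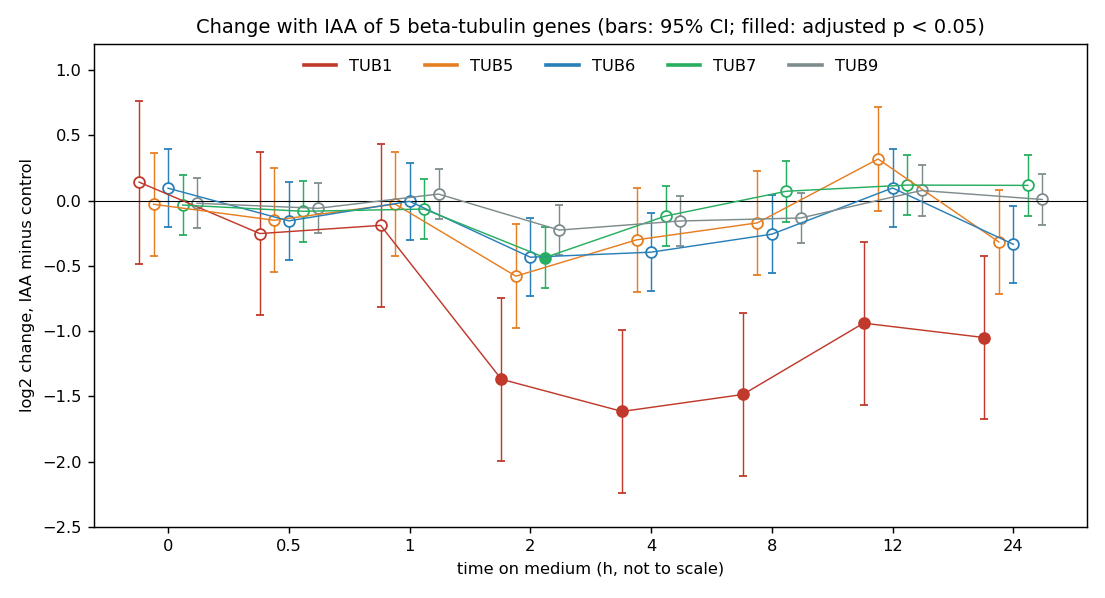
Log2 change of IAA minus control (y axis) of the 5 beta-tubulin genes at each time in hours (x axis, not to scale), with 95% confidence intervals and filled points where limma's adjusted p was under 0.05. All 5 changes lay below 0 at 2 h, and TUB1 alone passed from 4 to 24 h.

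By time, 0 of 5 members passed at 0, 0.5 and 1 h with limma, while 0, 1.18% and 1.94% of all probe sets passed. At these times 0 members had an unadjusted p under 0.05, against 0.796%, 8.73% and 10.1% of all probe sets. At 2 h 2 of 5 passed, TUB1 and TUB7, against 9.21% of all probe sets, and all 5 had an unadjusted p under 0.05, against 20.6% of all probe sets. At 4, 8, 12 and 24 h 1 of 5 passed, TUB1 each time, against 16.8%, 14.9%, 10.9% and 7% of all probe sets. No member was called higher on IAA at any of the 8 times.

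The signs of the members ran together at 3 times. All 5 changes were below 0 at 0.5, 2 and 4 h, and 4 of 5 were above 0 at 12 h, with TUB1 the exception. These signs were the same after quantile normalization and after median centring. Without replicate 1 of all groups TUB1 at 0.5 h was 0.037, and without replicate 2 TUB6 at 12 h was -0.12. On control medium alone all 5 likewise lay above control 0 h at 0.5, 4, 8 and 24 h, where 0 probe sets were called. The members share the arrays, so their signs are not independent. The median change of the 5 members was -0.15 at 0.5 h, -0.44 at 2 h, -0.30 at 4 h, -0.17 at 8 h, 0.10 at 12 h and -0.32 at 24 h. Over all probe sets the medians at these times lay between -0.02 and 0. The IAA and control arrays did not overlap for 0 of 5 members at 0, 0.5 and 1 h, against 3.5%, 13.5% and 11.9% of all probe sets. They did not overlap for 4 members at 2 h (all but TUB6), against 20.1%. At 4 h the members apart were TUB1, TUB6 and TUB9 (34.3% of all probe sets), and at 8 h TUB1, TUB5 and TUB6 (35.3%). At 12 h they were TUB1 and TUB5 (32.6%), and at 24 h TUB1 and TUB6 (20.2%).

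The control roots alone gave no called change of a beta-tubulin over the 24 h. In the F test of the control groups against control 0 h, 0 of 5 members and 0 of 22746 probe sets passed with limma, with 0 members and 480 probe sets at an unadjusted p under 0.05. Control means of TUB1 lay between 10.15 ± 0.15 at 1 h and 10.71 ± 0.02 at 8 h (SD, n = 3). On IAA, the F test against the 0 h arrays of IAA medium passed for TUB7 (adjusted p = 0.000121) and TUB1 (0.000336), against 31.9% of all probe sets. TUB6 gave 0.062, TUB5 gave 0.141 and TUB9 gave 0.191. TUB7 thus ranked ahead of TUB1 in this test, and the single time at which TUB7 passed was 2 h. By time against 0 h on IAA, 0 of 5 members passed at 0.5 and 1 h (2.37% and 4.59% of all probe sets), with TUB1 at an unadjusted p under 0.05 at 1 h (14% of all probe sets). TUB1 and TUB7 passed at 2 h (9.72%), TUB1 and TUB6 at 4 h (16.8%, TUB6 with a change of -0.41 and an adjusted p of 0.0479), and TUB1 alone at 8, 12 and 24 h (15.5%, 11.8% and 9.66%). All called members were lower than at 0 h. These comparisons share the IAA arrays of 0 h.

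Whether the IAA effect differed between times was tested as an interaction. Between 8 and 2 h, 0 of 5 members passed with limma (1.75% of all probe sets), with 1 member, TUB7, at an unadjusted p under 0.05 (9.65% of all probe sets). Its effect was 0.51 ± 0.16 higher at 8 h than at 2 h (log2, SE, adjusted p = 0.115). Between 24 and 8 h, 0 of 5 passed (1.29% of all probe sets) and 0 had an unadjusted p under 0.05 (9.05%). The effect of IAA on TUB1 at 24 h minus that at 8 h was 0.44 ± 0.44, with a 95% confidence interval from -0.45 to 1.32.

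The interaction between 12 and 2 h was added after it was seen that TUB5 lay lower at 2 h and higher at 12 h. Of the 5 members 1 passed, TUB7 at 0.56 ± 0.16 (log2, SE, limma adjusted p = 0.0473), against 3.31% of all probe sets. TUB5 gave 0.90 ± 0.28 (0.0652), TUB6 0.53 ± 0.21 (0.184), TUB1 0.43 ± 0.44 (0.766) and TUB9 0.30 ± 0.13 (0.272). All 5 were positive, with 4 at an unadjusted p under 0.05, against 14.1% of all probe sets. The 2 times were picked from the values of a member, so the shares over all probe sets are not a like background for these counts. After median centring TUB5 passed (0.0460) and TUB7 did not (0.0859), and with the replicate block TUB5 passed as well (0.0315). The call for TUB7 was near the threshold and was lost in 27 of 51 fits that left out an array or a replicate number, where its adjusted p ran from 0.0218 to 0.402 and the difference from 0.43 to 0.65.

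Arrays of the same group also differed in their tubulin levels, and TUB1 and TUB5 did so together. After subtracting the group mean, the deviations of the 48 arrays correlated between TUB1 and TUB5 with Pearson's r = 0.896 and Spearman's rho = 0.743 (permutation test within groups, two-sided, 100000 resamples, p = 4e-05 for each). Adjusted by Benjamini-Hochberg over the 10 pairs of members, p was 0.0004 for each. Without the 2 arrays farthest from the median in TUB1, replicate 2 of IAA 24 h and replicate 3 of IAA 1 h, r was 0.842. It was 0.919 over the IAA arrays and 0.774 over the control arrays, and 0.832, 0.906 and 0.902 over replicates 1, 2 and 3.

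The pooled SD within groups was 0.40 for TUB1, 0.25 for TUB5, 0.18 for TUB6, 0.14 for TUB7 and 0.11 for TUB9. Of 13349 other genes, TUB1 was the one whose deviations correlated best with those of TUB5. TUB5 was the 7th for TUB1, after genes led by AT5G62340 at 0.927. The pairs TUB1 and TUB7 (r = 0.293, permutation test, adjusted p = 0.130), TUB5 and TUB7 (0.303, 0.141) and TUB6 and TUB7 (0.339, 0.110) did not pass. The other 6 pairs passed with r between 0.448 and 0.591. By rank among 13349 other genes these ran from 64th (TUB6 for TUB9) to 1457th (TUB6 for TUB1), so that other genes correlated more strongly in each case. The share of all gene pairs that pass this test was not computed. Deviations of arrays of 1 group share the RNA sample and the array, and their source was not tested.

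**Figure D3:**
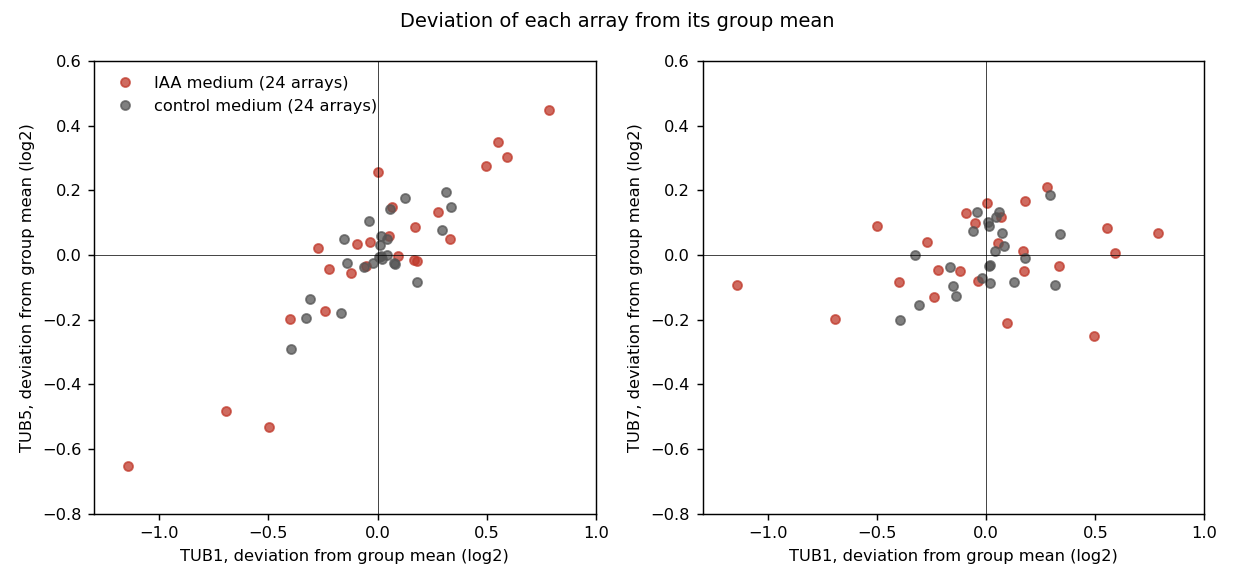
Deviation of each of 48 arrays from its group mean (log2) for TUB1 (x axis) against TUB5 (y axis, left) and TUB7 (y axis, right), with IAA arrays in red and control arrays in grey. The points of TUB1 and TUB5 lie along 1 line (r = 0.896) with replicate 2 of IAA 24 h at the lower left, and those of TUB1 and TUB7 scatter (r = 0.293).

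Over the 16 group means, which share the arrays and the medium, the members fell into different patterns. The correlation was 0.857 between TUB5 and TUB6 and 0.786 between TUB1 and TUB6, while TUB1 and TUB7 gave 0.231. TUB1 and TUB5, the pair most alike in the deviations within groups, gave 0.630 over the group means. Their control means correlated at 0.702 over 8 groups, less than those of TUB1 and TUB7 (0.840) or of TUB1 and TUB6 (0.725). On IAA at 12 h TUB5 was at its highest and TUB1 was below its control arrays.

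Of 13349 other genes with a probe set of their own, those most like TUB1 over the 16 group means were AT3G07010 (r = 0.986), AT1G57590 (0.985) and XTH21 (0.981), which belongs to the xyloglucan endotransglucosylase/hydrolases of the cell wall. For TUB6 they were SBTI1.1 (0.932), a subtilase that in Arabidopsis processes a phytosulfokine precursor, AT5G57670 (0.927) and AT1G79620 (0.923). For TUB7 they were AT1G01540 (0.926), AT4G35335 (0.922) and AT5G65910 (0.904). For TUB5 they were AT3G02630 (0.910), AT2G26360 (0.893) and AT4G31470 (0.893), and for TUB9 AT4G11380 (0.874), AT1G75990 (0.867) and AT5G04420 (0.860). The 5 lists share no gene, and the likeness is a ranking over 16 points.

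**Figure D4:**
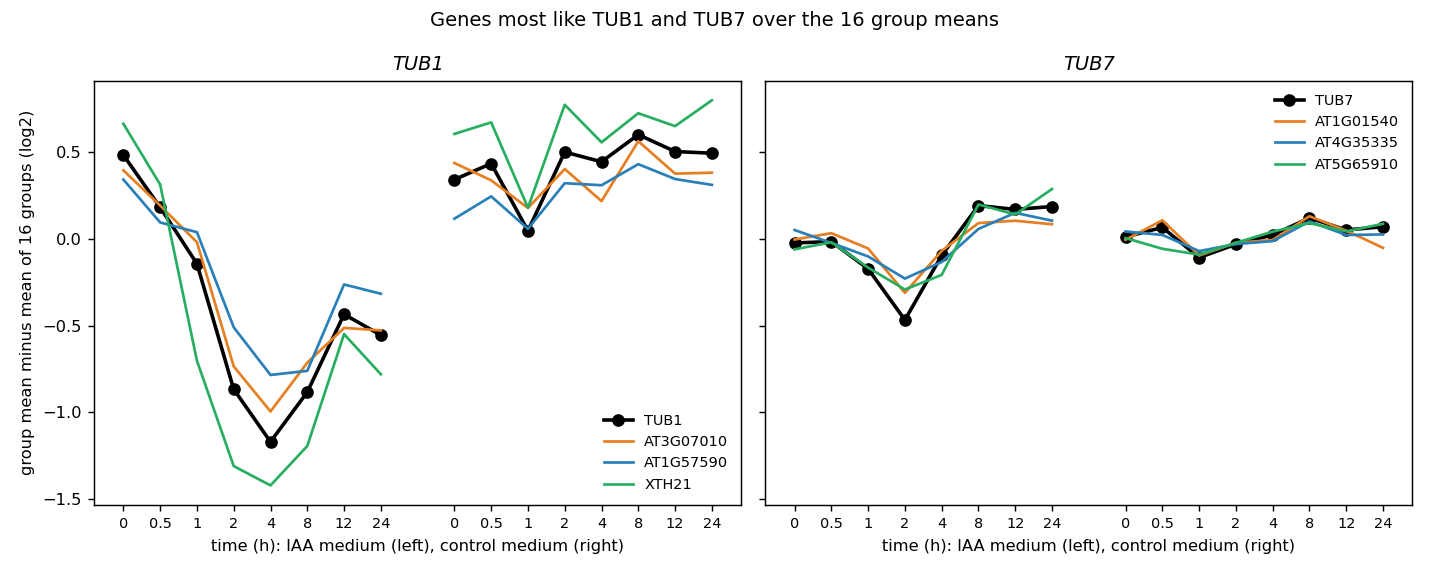
Group means minus the mean of the 16 groups (y axis, log2) against time in hours for IAA medium and then control medium (x axis, not to scale), for TUB1 (left) and TUB7 (right) in black with the 3 most similar genes of each. TUB1 and its 3 genes were lowest at IAA 4 h, whereas TUB7 and its 3 genes were lowest at IAA 2 h. The genes were picked by their correlation with the member over these same means, so a shared lowest group is largely built in.

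Alpha-tubulins, the partners of the members in the dimer, gave 2 measured genes of 6, and 0 passed the F test. TUA1, which in Arabidopsis is known from pollen, read 8.00, 8.01 and 7.76 on IAA at 4 h, against 7.32, 7.60 and 7.64 on control medium. The groups were separate, and TUA1 was 0.40 ± 0.14 higher (log2, SE, limma adjusted p = 0.0375). At 8 h it was 0.39 higher (0.0496), and its F test gave 0.0528. TUA6, whose protein is widely used as a marker of microtubules, changed by -0.34 to 0.42 with no time called. The largest TUA6 change was at 12 h, where its arrays read 12.53, 12.58 and 12.52 on IAA, against 11.87, 11.91 and 12.60 on control medium (adjusted p = 0.232). Over the 16 group means, TUB1 correlated at -0.90 with TUA1 and at 0.02 with TUA6. TUB7 correlated with TUA1 at -0.08 and with TUA6 at 0.66.

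Of the tubulin folding cofactors 2 of 6 were measured, POR (cofactor C) and PFI (cofactor E), and 0 passed the F test. Of 9 genes of gamma-tubulin and its complex, which nucleates microtubules, 0 had a probe set that named them alone. Of 40 microtubule-associated proteins 5 were measured, all of the SPIRAL1 family of plant microtubule-binding proteins, and 3 passed the F test. SP1L3 rose on IAA by 0.52 ± 0.09 at 12 h (log2, SE, limma adjusted p = 6.12e-05), with arrays at 10.84, 10.98 and 10.86 on IAA, against 10.39, 10.27 and 10.46 on control medium. SP1L4 changed by -0.73 at 4 h (0.0322) and SP1L5 by -0.82 at 2 h (0.0193). SP1L5 averaged 6.22 on IAA at 2 h, within the range of the arrays' lower quartiles (6.11 to 6.29). SP1L2 and SPR1 gave F tests of 0.107 and 0.462. Of 21 kinesins 2 were measured, KINESIN-12B and KINESIN-13A, and 0 passed. Of 13 genes of cellulose synthesis 1 was measured, COB, with an F test of 0.233.

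Of 9 actins 2 were measured. ACT11, an actin gene known from reproductive tissues, fell at each time from 1 to 24 h, with changes of -0.74 at 1 h (limma adjusted p = 0.0346), -1.49 at 2 h (1.23e-06) and -1.71 at 4 h (3.83e-08). At 4 h its arrays read 7.49, 7.14 and 7.12 on IAA, against 9.04, 8.90 and 8.94 on control medium, with the groups far apart. At 24 h the change was -0.80 (0.00772), where replicate 2 of IAA was the lowest array as for TUB1, at 7.66. ACT12 passed at no time (F test 0.892). Over the 16 group means TUB1 and ACT11 correlated at 0.95, and TUB7 and ACT11 at 0.37.

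**Figure D5:**
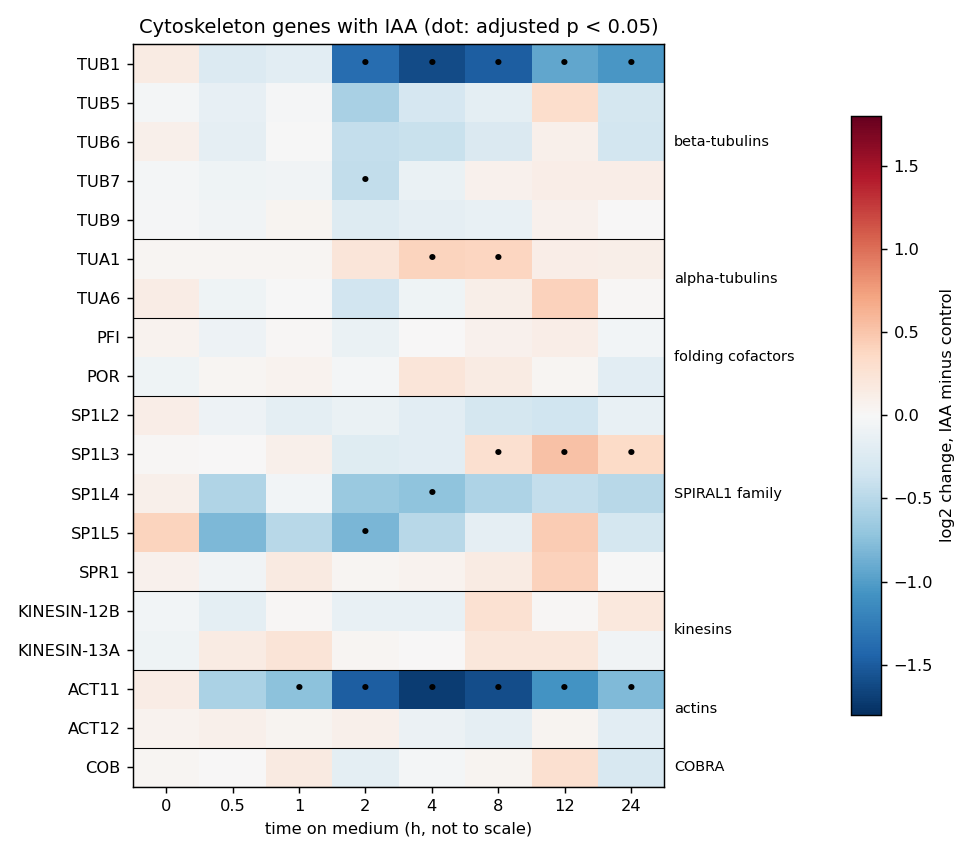
Log2 change of IAA minus control (colour, blue lower and red higher on IAA) of the measured cytoskeleton genes (rows, grouped by list) at each time in hours (columns), with a dot where limma's adjusted p was under 0.05. TUB1 and ACT11 have dots at 5 and 6 times on the lower side, and TUA1 and SP1L3 have theirs on the higher side.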

How the data were processed

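RNA of Arabidopsis roots had been hybridised to 48 single-channel Affymetrix arrays. The deposited values are log2 intensities, a unit read from the values. How the authors summarised and normalized the arrays is not given in the sources used. They were used as deposited. Of 22810 probe sets, 64 Affymetrix controls were left out. The gene table named 1 gene for 13513 of the 22746 tested probe sets (59.4%), and symbols came from the RefSeq table of TAIR10.1.

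All arrays entered 1 model with 16 group means in limma 3.58.1 (lmFit, eBayes, R 4.3.3; 32 residual degrees of freedom). Tests were two-sided, adjusted by Benjamini-Hochberg over all tested probe sets within a contrast, and called under 0.05. The fit was also run on simulated data with independent noise in each array. Those data lack any structure shared between arrays, and no result here rests on them. Alternatives were quantile normalization, median centring, a filter on low values (log2 mean above 6.19), a replicate block, an intensity trend with robust estimation, fits without arrays, the 6 arrays of a time alone, subtraction of the 0 h difference, and an added fold of 1.5.

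Every member was named. Of each other list, all measured genes were counted and up to 4 named by the smallest F test p, with others given beside them, and for each member the 3 genes with the highest Pearson correlation of group means were named. The members and lists were chosen with earlier results of these data known.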

Additional observations from a re-analysis of the deposited data

Results flagged for a closer look

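TUB7 was flagged for the difference between its IAA effects at 12 and 2 h, and TUB5 for separate arrays on opposite sides of the controls. For TUB7 the effect at 12 h minus that at 2 h was 0.5556 on the log2 scale (limma adjusted p = 0.0473), and this comparison was chosen after the values were seen. The TUB7 call was lost in 27 of 51 fits that left out an array or a replicate number. It was also lost after quantile normalization (limma adjusted p = 0.0522) and after median centring (0.0859). For TUB5 all 3 IAA arrays lay below all 3 control arrays at 2 h (change of -0.5793) and at 8 h (-0.1709), and above all 3 at 12 h (0.3185). None of these 3 changes passed (limma adjusted p = 0.0558, 0.637 and 0.346). The arrays did not overlap for 20.1%, 35.3% and 32.6% of all probe sets at these times. The test of the difference between 12 and 2 h did not pass for TUB5 (limma adjusted p = 0.0652), and that between 12 and 8 h was not tested.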

How the results depend on the processing

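Quantile normalization gave 2 members past the threshold at 4 h (with TUB6), 4 for the mean of the 7 times (with TUB5 and TUB9), 0 for the difference between 12 and 2 h, and turned the uncalled changes of TUB9 to -0.0035 at 1 h and -0.019 at 24 h. Median centring left 1 member in the F test (TUB6 at 0.0543), turned TUB6 at 1 h to 0.015, brought TUB5 past the threshold at 2 h (0.0435) and exchanged TUB7 (0.0859) for TUB5 (0.0460) in the difference between 12 and 2 h. The filter on low values gave 4 at 2 h (with TUB5 and TUB6) and 2 at 4 h. The same counts came from the replicate block, which also gave 2 for the difference between 12 and 2 h.

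The main fit did not take replicate numbers as pairs, because no label ties a number to a batch. The data hold a structure shared between arrays of the same number that this fit leaves out, and its source was not tested. Of the 24 couples of an IAA and a control array with a shared number, 20 correlated above 0.1 in their deviations, with the lowest at -0.18. Of 48 arrays, 39 correlated best with their own number among the 3 arrays of the other medium at the same time. At 2 h the 3 couples gave 0.18 to 0.48. The block also brought TUB5 past the threshold in the F test (0.0430) and for the mean of the 7 times (0.0372), so that 3 members passed in each.

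Subtracting the difference at 0 h left 1 member at 2 h (TUB1, with TUB7 lost), 0 at 12 h and 0 at 24 h, and TUB5 at 1 h became 0.0016. A fold of at least 1.5 in addition left 1 at 2 h and 1 for the mean. The 6 arrays of a time alone left 1 at 2 h (TUB1, with TUB7 lost) and 0 at 24 h. Leaving out the 4 arrays that stood farthest from their groups, an alternative chosen after seeing the data, 0 passed the threshold at 24 h, and TUB5 became 0.045 at 0 h and 0.0093 at 24 h. The causes of these shifts were not tested.

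Over the 51 fits without 1 array or 1 replicate number, the counts of members past the threshold ran from 1 to 3 in the F test, 0 to 4 at 2 h, 1 to 2 at 4 h, 0 to 1 at 12 h, 0 to 1 at 24 h and 0 to 2 for the difference between 12 and 2 h. Uncalled changes that crossed 0 in these fits were, for TUB1, -0.084 to 0.42 at 0 h, -0.49 to 0.037 at 0.5 h and -0.58 to 0.16 at 1 h. For TUB5 they were -0.20 to 0.067 at 0 h, -0.25 to 0.21 at 1 h and -0.49 to 0.0093 at 24 h. For TUB6 they were -0.089 to 0.21 at 0 h, -0.13 to 0.17 at 1 h and -0.12 to 0.24 at 12 h. For TUB7 they were -0.15 to 0.033 at 0 h, -0.14 to 0.034 at 1 h and -0.029 to 0.18 at 8 h. For TUB9 they were -0.11 to 0.059 at 0 h, -0.052 to 0.17 at 1 h and -0.11 to 0.14 at 24 h. No change that passed the threshold in the full fit reversed. With 3 arrays in a group, small changes lie within the confidence intervals.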
